A study of Mus musculus with 6 samples.

Results

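The transcripts of 10 integrin subunits, the adhesion receptors through which leukocytes hold on to other cells and to the matrix, were compared between Lamtor5 knockdown and WT macrophages. The subunits were chosen by gene name: Itgb2, Itgam, Itgal and Itgax of the beta2 family, Itgb1 with Itga4, Itga5 and Itga6, the second beta partner of alpha4, Itgb7, and Itgav. All 10 had 1 row each among the 55401 genes of the table, and all 10 passed the filter on low counts. The cells were mouse bone marrow-derived macrophages (BMDM), grown out of marrow with M-CSF, the growth factor that drives macrophage differentiation. There were 3 Lamtor5 knockdown and 3 WT libraries, with M-CSF as the treatment in both groups. Lamtor5, also known as HBXIP, belongs to the Ragulator complex, which recruits mTORC1 to lysosomal membranes. The series' design text names the mutant mice with LysM, the myeloid lysozyme promoter commonly used to drive Cre, so a loss of the gene would be limited to cells that have used that promoter. The labels used here do not state whether the WT mice carried the same driver, how old the mice were, or whether replicates were separate animals or cultures. The p-values below therefore rest on a spread between libraries that may be technical.

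Integrins are heterodimers of an alpha and a beta chain, and a chain reaches the cell surface only when it has paired. The beta2 chain (CD18, Itgb2) is shared by the leukocyte receptors alphaL, alphaM and alphaX, which bind ICAMs, complement fragment iC3b and fibrinogen and serve adhesion and phagocytosis. The beta1 chain (CD29, Itgb1) pairs with alpha4, which binds VCAM1 and fibronectin, with the fibronectin receptor chain alpha5 and with the laminin receptor chain alpha6. The beta7 chain also takes alpha4 and then binds MAdCAM1, and alphaV pairs with several beta chains to bind vitronectin, osteopontin and other RGD ligands. Binding is switched on from inside the cell by talin and kindlin, which attach to the beta tail.

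Depth was 26 to 28 M read pairs per library. Lamtor5, the targeted gene, had 25.5, 27.1 and 24.8 FPKM (the authors' fragments per kb of transcript per M) in knockdown replicates 1 to 3, against 55.9, 54.5 and 56.2 FPKM in WT replicates 1 to 3, so transcript remained at 46.5% of WT. Knockdown replicate 3 stood apart: Lyz2, the lysozyme gene whose promoter names the mice, had 11356, 10650 and 73.6 FPKM in knockdown replicates 1 to 3, against 29379, 24743 and 22454 FPKM in WT replicates 1 to 3. Lyz2 was singled out after its values were seen, and its difference was not called (log2 fold change -1.76, edgeR adjusted p = 0.408). The part of the LysM driver in the Lyz2 values was not tested. The values that moved most with knockdown replicate 3 are given with and without that library below.

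Of the 10 subunits, Itga4 and Itgam, were lower in the knockdown, and none was called higher. The common chains Itgb2 and Itgb1, and Itgav, lay close to their WT levels. By edgeR's quasi-likelihood test with Benjamini-Hochberg adjustment over all genes tested (threshold 0.05), 2 of 10 subunits were called lower and 0 higher, where the backgrounds over 18164 genes were 6.46% lower and 4.87% higher, or 11.3% in either direction. At an unadjusted p under 0.05 there were 5 of 10 (Itgam, Itgax, Itga4, Itgb7 and Itga5), of which Itgax alone was above 0. Over all genes, 5484 of 18164 lay under the same unadjusted threshold. DESeq2 called Itgax higher and 3 subunits lower (Itgam, Itga4 and Itgb7), with adjusted p of 0.0294 for Itgax and 0.0483 for Itgb7, beside backgrounds of 9.38% higher and 11.8% lower, 21.2% in all. The FPKM of the groups did not overlap for 4 of 10 subunits (Itgam, Itga4, Itgb7 and Itga5), all with the knockdown below WT, while 37.6% of all genes did not overlap and 21.3% did so with the knockdown below. The log2 fold change was below 0 for 7 of 10 subunits with a median of -0.23, against 48.5% of all genes and a median of 0.02. With WT replicate 2 left out, no gene of the whole table passed (0 calls, 4065 genes at an unadjusted p under 0.05), so none of the calls below held there. With knockdown replicate 3 left out, Itga4 alone of the 10 was called, as lower, beside backgrounds of 2.17% lower and 1.98% higher, 4.15% in all.

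**Figure D1:**
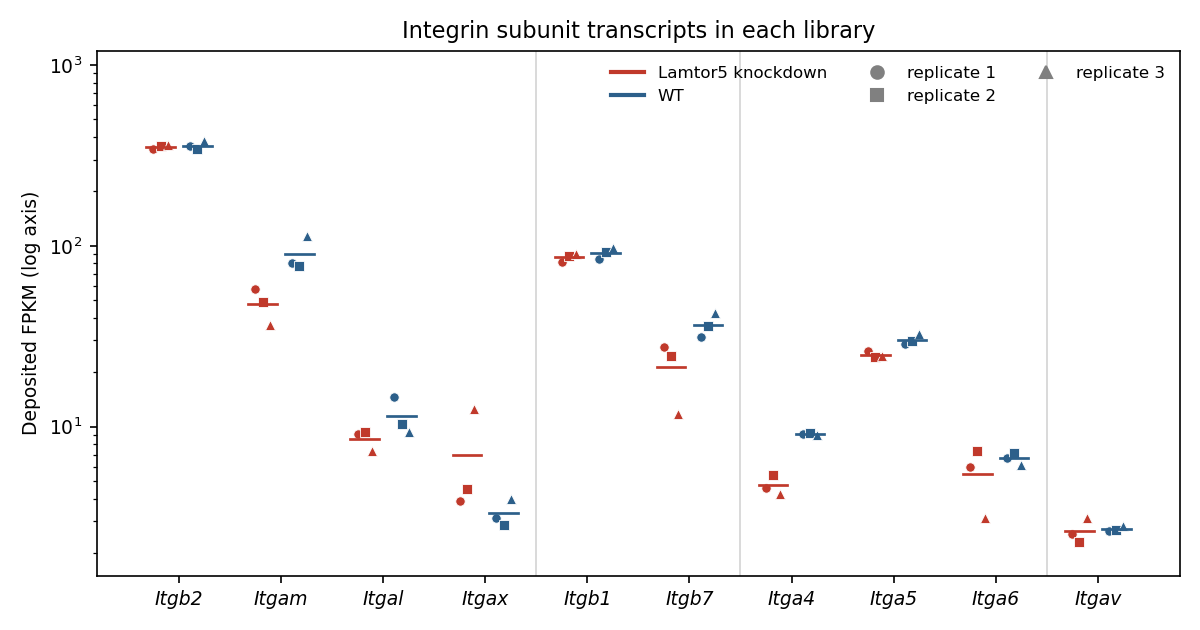
Deposited FPKM (log axis) of the 10 subunits in each library, Lamtor5 knockdown in red left of WT in blue; marker shapes give the replicate and horizontal lines the mean of 3. Itga4, Itgam, Itgb7 and Itga5 separate by group, Itgb2 and Itgb1 overlap, and knockdown replicate 3 lies apart for Itgax, Itgb7 and Itga6.

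Itgb2 (chromosome 10, 77530252 to 77565686, plus strand, GRCm38) carried the highest level of the set. It had 342, 359 and 361 FPKM in knockdown replicates 1 to 3, against 355, 341 and 378 FPKM in WT replicates 1 to 3. The groups overlapped, and the log2 fold change was 0.03 with an SE of 0.079 (edgeR adjusted p = 0.829). An interval of 2 SE either side ran from -0.13 to 0.19, so differences of beta2 beyond these bounds lie outside the interval. Its sign turned to -0.02 with WT replicate 2 left out.

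Itgam (CD11b, the alphaM chain of Mac-1, a complement receptor and a common myeloid marker) lies on chromosome 7, 128062640 to 128118491, plus strand. It had 57.5, 48.8 and 36.5 FPKM in knockdown replicates 1 to 3, against 80.4, 77.6 and 113 FPKM in WT replicates 1 to 3. Every knockdown library lay below every WT library, and the mean fell to 47.6 ± 10.6 FPKM in the knockdown, against 90.4 ± 19.8 FPKM in WT (SD, n = 3 each), 52.7% of WT. The log2 fold change was -0.87 with an SE of 0.208 (edgeR adjusted p = 0.0428). That call was lost with any 1 library left out: the log2 fold change was then -1.05 without knockdown replicate 1, -0.87 without replicate 2 and -0.72 without replicate 3, and -0.94, -0.98 and -0.69 without WT replicates 1, 2 and 3, with adjusted p from 0.0568 to 0.110.

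The Itgam row shares sequence with another protein-coding gene of the annotation, Gm49368, which starts 43 bp further on, runs on the same strand to 128128160 and ends 1386 bp before Itgax. Of Itgam's 5024 exonic bases in GENCODE M21, 3450 (68.7%) also lie in exons of Gm49368, so reads there can be assigned to either row. Gm49368 was brought in after the values were seen. It had 40.6, 69.5 and 73.0 FPKM in knockdown replicates 1 to 3, against 60.96, 81.7 and 47.6 FPKM in WT replicates 1 to 3, without a call (log2 fold change -0.01, edgeR adjusted p = 0.988). Among knockdown libraries and among WT libraries alike, the library with the most Itgam held the least Gm49368 in its group, and Itgam took 58.6, 41.3 and 33.3% of the pair's FPKM in knockdown replicates 1 to 3 and 56.9, 48.7 and 70.4% in WT replicates 1 to 3.

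Counted together, the pair had 98.2, 118 and 110 FPKM in knockdown replicates 1 to 3, against 141, 159 and 161 FPKM in WT replicates 1 to 3. The groups again did not overlap, with a mean of 109 ± 10.1 FPKM in knockdown libraries, against 154 ± 10.8 FPKM in WT libraries (SD, n = 3 each), and each group's SD was smaller relative to its mean than for Itgam alone. The fall was smaller than on the Itgam row: the log2 fold change of the summed counts was -0.46 with an SE of 0.0837 (edgeR adjusted p = 0.0212, in a fit that called 6.48% of genes lower and 4.89% higher, 11.4% in all). It passed without knockdown replicate 2 (adjusted p = 0.0427) and without WT replicate 1 (0.0211), and did not pass without knockdown replicate 1 (0.0699) or 3 (0.0538) or without WT replicate 2 (0.0966) or 3 (0.0642), with log2 fold changes from -0.51 to -0.41. The size of any change of Itgam itself could not be settled from these files. It need not lie between the values for the Itgam row and for the pair. In these bulk libraries, fewer cells that carry a transcript and less of it per cell cannot be told apart.

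**Figure D2:**
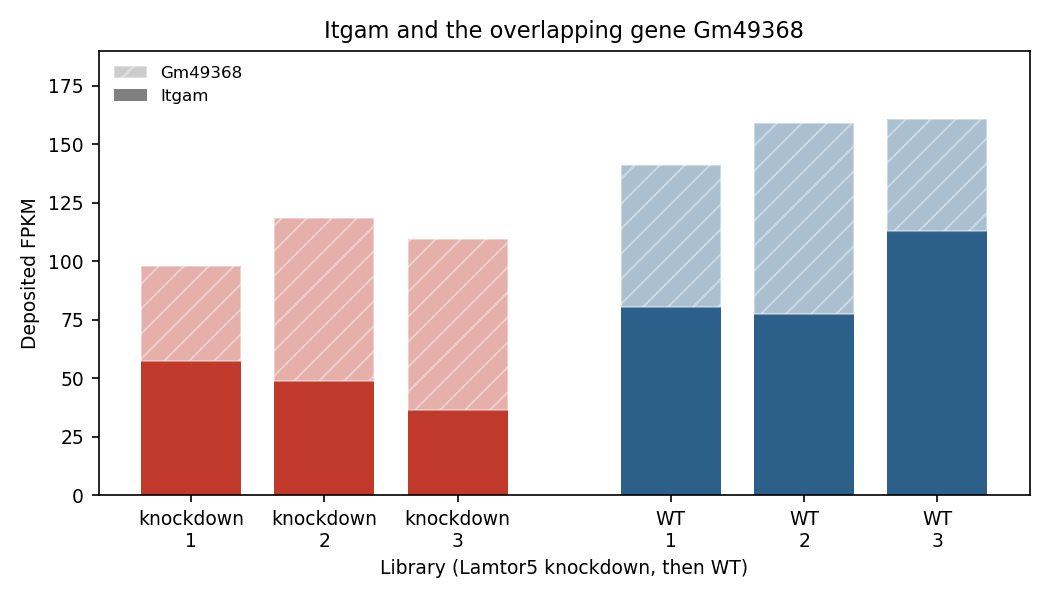
Deposited FPKM of Itgam (solid) with Gm49368 stacked on it (hatched) in each library, Lamtor5 knockdown at the left and WT at the right. The stacked totals run from 98.2 to 118 FPKM in the knockdown and from 141 to 161 FPKM in WT, while the division between the 2 rows varies from library to library.

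The 250 bases before the start sites of Itgam, Itgax and Itga4, the alpha chains with the largest fold changes of the set, are printed from RefSeq's promoter table (build GRCm38.p6, plus strand for all 3), in which 7 of 10 subunits had an entry. The letters searched, on both strands, were GAGGAA (a core of PU.1 sites), TGTGGT (RUNX), CACGTG (E-box), GGGCGG (Sp1) and TGANTCA (AP-1), and they were searched from 250 bases before to 50 after each start. Capitals mark every match, and no matches overlapped in these windows.
Itgam promoter, chr7:128062390-128062639: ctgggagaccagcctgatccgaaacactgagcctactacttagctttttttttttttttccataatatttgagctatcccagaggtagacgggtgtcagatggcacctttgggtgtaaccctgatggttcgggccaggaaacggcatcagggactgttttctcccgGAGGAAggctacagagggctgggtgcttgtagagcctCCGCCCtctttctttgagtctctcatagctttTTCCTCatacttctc
Itgax promoter, chr7:128129300-128129549: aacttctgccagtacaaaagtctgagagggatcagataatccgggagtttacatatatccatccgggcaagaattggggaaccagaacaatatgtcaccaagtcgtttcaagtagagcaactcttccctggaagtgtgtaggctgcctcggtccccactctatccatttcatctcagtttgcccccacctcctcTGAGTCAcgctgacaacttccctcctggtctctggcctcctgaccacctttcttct
Itga4 promoter, chr2:79255176-79255425: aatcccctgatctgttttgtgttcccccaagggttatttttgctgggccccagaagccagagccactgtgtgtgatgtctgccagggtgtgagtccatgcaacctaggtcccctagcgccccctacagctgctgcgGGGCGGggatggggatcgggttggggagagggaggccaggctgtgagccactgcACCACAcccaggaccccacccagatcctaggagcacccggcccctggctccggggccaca
The Itgam window held the GAGGAA core 3 times, 84 and 15 bases before the start and 32 after it, and the GGGCGG core once. The start of Gm49368 falls in the same window, 43 bases after that of Itgam. The Itgax window held TGANTCA 56 bases before the start and TGTGGT 13 after it, and the Itga4 window held GGGCGG 114 and TGTGGT 60 bases before the start. Of 32817 RefSeq promoters of this length, 28.3% held GAGGAA, 16.8% TGTGGT, 35.6% GGGCGG, 7.81% TGANTCA and 7.15% CACGTG, which none of the 7 subunits' windows held. A match describes these letters only.

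Itgal (chromosome 7, 127296260 to 127335138), the alphaL chain of the ICAM receptor LFA1, had 9.10, 9.39 and 7.29 FPKM in knockdown replicates 1 to 3, against 14.6, 10.4 and 9.34 FPKM in WT replicates 1 to 3. The highest knockdown library lay just above the lowest WT library, and the difference was not called (log2 fold change -0.37, SE 0.192, edgeR adjusted p = 0.249, 2 SE interval -0.75 to 0.01). Without WT replicate 1, the library with the most Itgal, it was -0.14.

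Itgax (CD11c, chromosome 7, 128129547 to 128150657), the alphaX chain and a marker shared by dendritic cells and some macrophages, was the subunit farthest above WT and the least even. It had 3.90, 4.52 and 12.4 FPKM in knockdown replicates 1 to 3, against 3.11, 2.88 and 3.995 FPKM in WT replicates 1 to 3. Knockdown replicate 1 lay inside the WT range, replicate 2 slightly above it, and replicate 3 far above the other 5 libraries. The difference was not called (log2 fold change 1.12, SE 0.449, edgeR adjusted p = 0.149), and without knockdown replicate 3 it was 0.38 (adjusted p = 0.242). The summed FPKM of 8 dendritic cell markers was 14.7, 15.2 and 17.5 in knockdown replicates 1 to 3, against 8.13, 6.56 and 9.45 in WT replicates 1 to 3. Kit, which mast cells and progenitors also express, carried much of that sum: it had 7.37, 5.77 and 15.4 FPKM in the knockdown, against 1.41, 1.94 and 2.98 FPKM in WT. The other 7 markers summed to 7.38, 9.46 and 2.07 FPKM in the knockdown, against 6.72, 4.61 and 6.46 FPKM in WT, so knockdown replicate 3, the library with the most Itgax, had the least of them. The part of these markers in the Itgax value was not tested.

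Among the matrix receptors, the shared chain Itgb1 (chromosome 8, 128685654 to 128733200) had 81.8, 87.7 and 89.8 FPKM in knockdown replicates 1 to 3, against 84.9, 92.4 and 97.8 FPKM in WT replicates 1 to 3. The groups overlapped (log2 fold change -0.04, SE 0.077, edgeR adjusted p = 0.794, 2 SE interval -0.19 to 0.12), and the sign turned to 0.04 under upper quartile scaling.

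Itga4 (CD49d, chromosome 2, 79255426 to 79333123, plus strand), whose heterodimer with beta1 binds VCAM1 and is used by leukocytes to arrest on endothelium, showed the most even difference of the set. It had 4.59, 5.38 and 4.26 FPKM in knockdown replicates 1 to 3, against 9.12, 9.21 and 8.99 FPKM in WT replicates 1 to 3. No library of one group came near the other, and the mean fell to 4.74 ± 0.579 FPKM in the knockdown, against 9.11 ± 0.114 FPKM in WT (SD, n = 3 each), 52.1% of WT. The log2 fold change was -0.90 with an SE of 0.0874 (edgeR adjusted p = 0.00963, 2 SE interval -1.07 to -0.72). The call held under 16 of the 17 other settings, with log2 fold changes from -0.97 to -0.82, and was lost without WT replicate 2 (-0.90, adjusted p = 0.0616). The antisense neighbour Cerkl, which overlaps the gene, had 425 estimated counts over all 6 libraries.

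Itgb7 (chromosome 15, 102215995 to 102231944, minus strand), the other beta partner of alpha4, had 27.8, 24.6 and 11.8 FPKM in knockdown replicates 1 to 3, against 31.5, 36.0 and 42.5 FPKM in WT replicates 1 to 3. The groups did not overlap, but knockdown replicate 3 had less than either other knockdown library, and the difference was not called (log2 fold change -0.73, SE 0.298, edgeR adjusted p = 0.155). It was -0.44 (adjusted p = 0.144) without that library.

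Itga5 (chromosome 15, 103344286 to 103366763), the fibronectin receptor chain, had 26.3, 24.4 and 24.5 FPKM in knockdown replicates 1 to 3, against 28.6, 29.6 and 32.7 FPKM in WT replicates 1 to 3. All 3 knockdown libraries were below all 3 WT libraries by a small margin that was not called (log2 fold change -0.22, SE 0.0836, edgeR adjusted p = 0.129). Itga6 (chromosome 2, 71745616 to 71858416), the laminin receptor chain, had 5.99, 7.38 and 3.11 FPKM in knockdown replicates 1 to 3, against 6.71, 7.18 and 6.17 FPKM in WT replicates 1 to 3. The groups overlapped, and the log2 fold change of -0.24 (SE 0.277, edgeR adjusted p = 0.610) became 0.04 without knockdown replicate 3.

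**Figure D3:**
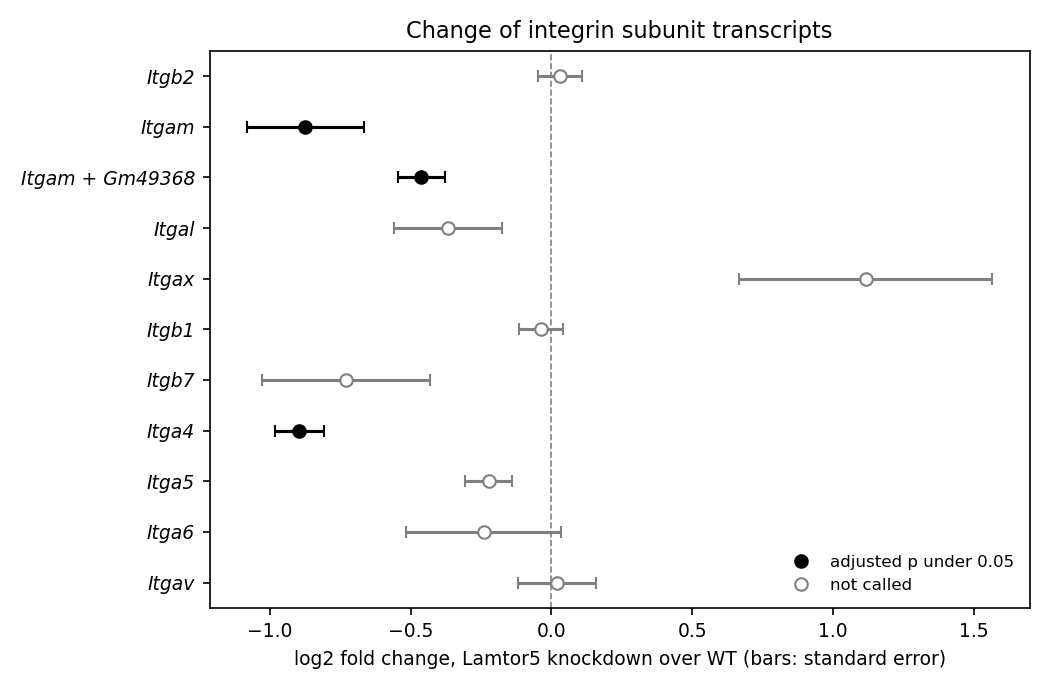
Log2 fold change (Lamtor5 knockdown over WT, edgeR; bars are standard errors) of the 10 subunits and of Itgam and Gm49368 counted together; filled points have an adjusted p under 0.05. Itga4 and Itgam sit near -0.9, the pair at -0.46, and Itgb2, Itgb1 and Itgav near 0.

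Itgav (chromosome 2, 83724397 to 83806916), the alpha chain of the vitronectin and osteopontin receptors, had 2.54, 2.30 and 3.13 FPKM in knockdown replicates 1 to 3, against 2.64, 2.70 and 2.82 FPKM in WT replicates 1 to 3. The groups overlapped (log2 fold change 0.02, SE 0.138, edgeR adjusted p = 0.943), and the sign was negative without knockdown replicate 3 (-0.12). Of its beta partners, Itgb3 did change. Itgb3, which also forms the platelet fibrinogen receptor with alphaIIb (Itga2b), had 88.5, 80.5 and 58.2 FPKM in knockdown replicates 1 to 3, against 23.9, 23.1 and 23.5 FPKM in WT replicates 1 to 3. Even its lowest knockdown library lay far above the WT libraries, and the rise was called (log2 fold change 1.74, SE 0.155, edgeR adjusted p = 0.00963), with 1.89 (adjusted p = 0.00419) without knockdown replicate 3 and 1.71 (adjusted p = 0.0616) without WT replicate 2, the setting under which it was lost.

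Itgb5 had 46.0, 37.8 and 45.5 FPKM in knockdown replicates 1 to 3, against 42.3, 37.3 and 35.4 FPKM in WT replicates 1 to 3, and was not called (log2 fold change 0.22, edgeR adjusted p = 0.298). Itgb6 had no counts in any library, and Itgb8 reached at most 0.0733 FPKM. Within the summed FPKM of Itgb1, Itgb3 and Itgb5, the Itgb3 share was 36.7 ± 5.80% in the knockdown and 15.3 ± 0.421% in WT (SD, n = 3 each), and Itgb3 exceeded Itgav by 29.5 ± 9.42 times in the knockdown and 8.66 ± 0.352 times in WT. These shares and ratios were chosen after the values were seen and carry no test.

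Itga2b, the other alpha partner of Itgb3, had 18.3, 24.7 and 7.01 FPKM in knockdown replicates 1 to 3, against 10.7, 11.2 and 9.98 FPKM in WT replicates 1 to 3. It was above WT in knockdown replicates 1 and 2 and below WT in replicate 3 (log2 fold change 0.69, edgeR adjusted p = 0.287; 1.05 with adjusted p = 0.0234 without replicate 3). The megakaryocyte and platelet marker list includes Itga2b. Summed FPKM over the list's 9 genes was 264, 374 and 98.2 in knockdown replicates 1 to 3. In WT replicates 1 to 3 the sum was 123, 102 and 95.3. The list was thus above WT in knockdown replicates 1 and 2 and inside the WT range in replicate 3. All 9 of its log2 fold changes were above 0 and 0 of 9 passed by edgeR (DESeq2 called 3 higher, beside 9.38% of all genes), while 6 of 9 passed as higher without knockdown replicate 3, in a fit that called 1.98% of all genes higher. The osteoclast list, which holds Itgb3 itself, summed to 215, 194 and 282 FPKM in the knockdown, against 123, 140 and 143 FPKM in WT. Without Itgb3 the sum was 126, 113 and 224 FPKM in the knockdown, against 99.4, 117 and 120 FPKM in WT, with knockdown replicate 2 inside the WT range. Of its 8 tested genes 5 were below 0, with a median log2 fold change of -0.19, and the calls were Itgb3 and Atp6v0d2 (log2 fold change 2.24) higher and Tnfrsf11a, which encodes RANK (-0.77), lower. That fit called 4.87% of all genes higher and 6.46% lower. The part of these markers in the Itgb3 difference was not tested.

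**Figure D4:**
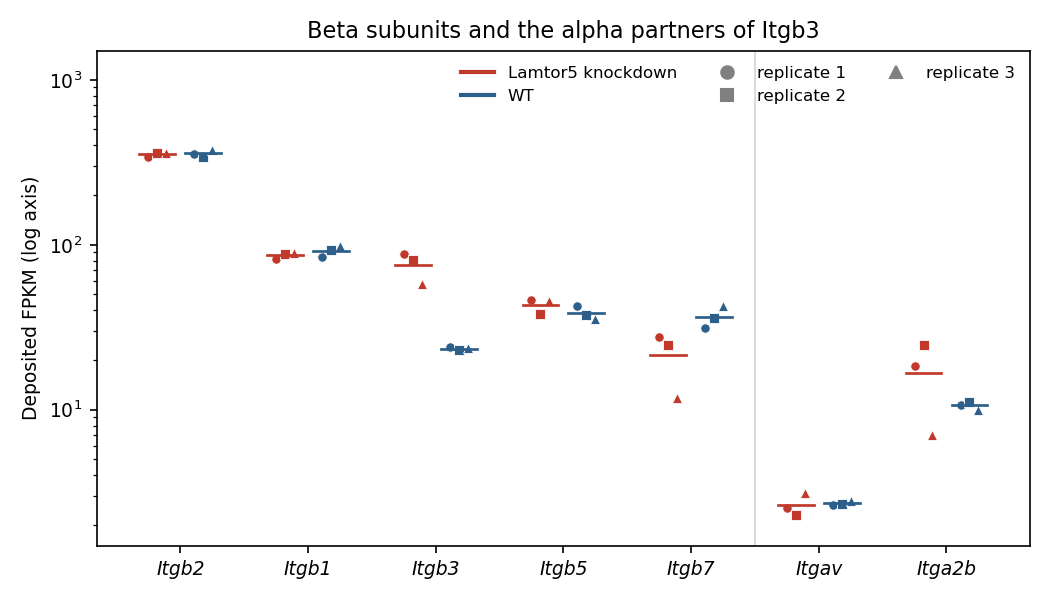
Deposited FPKM (log axis) of beta chains (left of the grey line) and of the alpha partners of Itgb3 (right) in each library, Lamtor5 knockdown in red left of WT in blue, with lines at the mean of 3. Itgb3 is at 58.2 to 88.5 FPKM in the knockdown and at 23.1 to 23.9 FPKM in WT, while Itgb2, Itgb1, Itgb5 and Itgav overlap.

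FPKM is per length, so levels of different subunits can be set against each other within a library. Itgb2 alone made up 62.9% of the summed FPKM of the 10 subunits in the knockdown and 55.9% in WT. In the knockdown the order by mean level was Itgb2, Itgb1, Itgam, Itga5, Itgb7, Itgal, Itgax, Itga6, Itga4 and Itgav, and the ranges of Itga5 and Itgb7 overlapped, as did those of each neighbouring pair from Itgal to Itga4. In WT the order was Itgb2, Itgb1, Itgam, Itgb7, Itga5, Itgal, Itga4, Itga6, Itgax and Itgav, with overlapping ranges for Itgb1 and Itgam and for Itgb7 and Itga5. Counted together with Gm49368, Itgam exceeded Itgb1 in every library of both groups, so its place below Itgb1 depends on how reads were divided between the 2 rows. Itga4 stood below Itga6 in the knockdown means and above it in all 3 WT libraries.

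The balance between the families was compared as log2 ratios of FPKM within each library, 11 ratios in all, by two-sided exact permutation tests whose smallest possible p with 3 against 3 libraries is 0.1, so no ratio could pass. The 5 ratios with an exact p of 0.1 had 0.22 after Benjamini-Hochberg adjustment over the 11. Itgb2 over Itgb1 was 2.03 ± 0.0278 in the knockdown and 1.97 ± 0.0914 in WT (SD, n = 3 each), a linear ratio of 4.10 against 3.91 (exact p = 0.4), with overlapping groups and a difference of 0.07. Itgav over Itgb2 averaged -7.07 in the knockdown and -7.04 in WT (exact p = 0.9), and Itgav over Itgb1 averaged -5.04 in knockdown libraries and -5.08 in WT libraries (exact p = 0.7). Itgb7 over Itgb1, the beta chains that both pair with alpha4, was -2.11 ± 0.723 in the knockdown and -1.33 ± 0.115 in WT without overlap (difference -0.78, exact p = 0.1), and the difference was -0.37 without knockdown replicate 3.

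The summed FPKM of the beta2 alpha chains Itgal, Itgam and Itgax was 70.5, 62.7 and 56.3 in knockdown replicates 1 to 3, against 98.1, 90.9 and 126 in WT replicates 1 to 3, and that of the beta1 alpha chains Itga4, Itga5 and Itga6 was 36.9, 37.1 and 31.9 in the knockdown, against 44.4, 46.0 and 47.9 in WT. Both sums were lower in every knockdown library, while the groups overlapped for both beta chains, and Itgb2 was 5.66 ± 0.785 times its alpha sum in the knockdown and 3.46 ± 0.411 times in WT, and Itgb1 was 2.46 ± 0.310 times its alpha sum in the knockdown and 1.99 ± 0.0678 times in WT (SD, n = 3 each). The beta2 alpha sum holds the Itgam row without Gm49368, so the Itgb2 multiples depend on how reads were divided between those rows. The log2 ratio of the beta2 to the beta1 alpha sum was lower by 0.34 in the knockdown (difference -0.34, exact p = 0.1), a gap that shrank to -0.056 when Gm49368 was added to Itgam. Itgam's own ratio to Itgb2 differed by -0.91, or by -0.49 with Gm49368 added, and Itga4's ratio to Itgb1 by -0.86, each without overlap (exact p = 0.1). Itgax over Itgb2 went the other way, by 0.89 without overlap (exact p = 0.1), and by 0.38 without knockdown replicate 3. The groups overlapped for Itgal over Itgb2 (difference -0.38), Itga5 over Itgb1 (-0.19) and Itga6 over Itgb1 (-0.29).

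Within the beta1 alpha sum, Itga4 took 12.4, 14.5 and 13.3% in knockdown replicates 1 to 3, against 20.5, 20.02 and 18.8% in WT replicates 1 to 3. Within the beta2 alpha sum, Itgax took 5.52, 7.21 and 22.1% in the knockdown, against 3.17, 3.17 and 3.16% in WT. With Gm49368 added to the sum, the Itgax share was 3.505, 3.42 and 9.63% in the knockdown, against 1.96, 1.67 and 2.30% in WT. On either sum it was above WT in all 3 knockdown libraries, although the FPKM of Itgax in knockdown replicate 1 lay inside the WT range.

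The genes most alike to a called subunit were taken as the 3 with the highest Pearson correlation of log2(FPKM + 0.1) over the 6 libraries, out of 6607 genes with a mean of at least 5 FPKM. The libraries share groups and depth, so the values are a description. For Itga4 they were Arhgef6, a Rac and Cdc42 exchange factor of focal adhesions (r 0.9993), the inhibitory C-type lectin receptor Clec12a (0.9988) and the Cdc42 exchange factor Fgd3 (0.9982). Clec12a had 9.70, 13.6 and 9.01 FPKM in the knockdown, against 33.7, 34.0 and 34.97 FPKM in WT. For the Itgam row they were Cox10 (0.9936), Atp9b (0.9916) and Mtch1 (0.9883), none of which was called.

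Of the 17 other integrin subunit genes, 14 were tested and 2 were higher (Itgb3 and Itgb4) and 0 lower, beside 4.87% and 6.46% of all genes. By DESeq2 3 were higher and 2 lower, beside 9.38% and 11.8% of all genes. Itgb4, the hemidesmosome beta chain, reached only 0.132 FPKM in any library (log2 fold change 2.39, edgeR adjusted p = 0.0382, lost with any 1 library left out). Besides Itgb3, Itgb5 and Itga2b, every other tested gene of this list reached at most 1.14 FPKM in any library, with log2 fold changes of -0.62 for Itga1, 1.49 for Itga2, -1.13 for Itga3, 0.25 for Itga7, -1.22 for Itga8, 3.32 for Itga9, 0.30 for Itga10, -0.59 for Itgad, -1.07 for Itgae and -1.13 for Itgb8, none called. Itga11, Itgb6 and Itgbl1 were under the filter.

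Among integrin ligands 23 of 31 genes were tested, of which 6 were lower and 1 higher, with a median log2 fold change of -0.49. Beside these, 6.46% of all genes were called lower and 4.87% higher, and the median of all genes was 0.02. By DESeq2 10 ligands were lower and 1 higher, beside 11.8% and 9.38% of all genes. Spp1 (osteopontin, a ligand of alphaV and alpha4 integrins and the most abundant ligand transcript here) had 2091, 2037 and 2296 FPKM in knockdown replicates 1 to 3, against 2822, 6737 and 6981 FPKM in WT replicates 1 to 3, with WT replicate 1 nearer the knockdown than the other WT libraries (log2 fold change -1.31, edgeR adjusted p = 0.0461). Mfge8, an RGD-containing bridge between alphaV integrins and phosphatidylserine on dying cells, rose to 113 ± 12.1 FPKM in the knockdown, against 65.4 ± 3.04 FPKM in WT (SD, n = 3 each; log2 fold change 0.84, edgeR adjusted p = 0.0113). Icam2, a ligand of alphaL, fell to 1.93 ± 0.312 FPKM in the knockdown, against 4.35 ± 0.728 FPKM in WT (log2 fold change -1.12, edgeR adjusted p = 0.0177). Adam9 (-0.79) and Adam15 (-0.49), whose disintegrin domains can bind integrins, and the low matrix genes Tnc (-2.88) and Col4a1 (-2.76) fell as well, while Icam1 (-0.12, adjusted p = 0.575) and Vcam1 (0.92, adjusted p = 0.189) were not called. Vtn, Madcam1 and the fibrinogen genes Fga, Fgb and Fgg had no counts. With 1 library left out, Mfge8 passed in 5 of 6 fits, Icam2 in 3, Col4a1 in 2, Adam9, Adam15 and Spp1 in 1 and Tnc in 0.

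Of the genes that activate integrins or tie them to actin, 33 of 36 were tested, 6 were lower and 2 higher, and the median was -0.23. Over all genes, 6.46% were called lower and 4.87% higher. By DESeq2 9 genes of this list were lower and 2 higher, beside 11.8% and 9.38% of all genes. The fallen genes included the filamin Flna, which binds beta tails and crosslinks actin, with 70.2 ± 18.9 FPKM in the knockdown, against 162 ± 38.6 FPKM in WT (log2 fold change -1.16, edgeR adjusted p = 0.0280). The adaptors of inside-out signalling Fyb (ADAP; 17.0 ± 3.77 FPKM in the knockdown, 33.6 ± 2.43 FPKM in WT, log2 fold change -0.94) and Apbb1ip (RIAM, which brings Rap1 to talin; 13.7 ± 1.28 FPKM in the knockdown, 19.0 ± 0.228 FPKM in WT, -0.43) fell too. So did the actin regulators Evl (15.0 ± 1.39 FPKM in the knockdown, 26.4 ± 1.78 FPKM in WT, -0.77) and Zyx (-0.55) and the Rap1 inhibitor Sipa1 (-0.52). Rapgef3 (EPAC1, a Rap1 exchange factor) rose to 1.19 ± 0.317 FPKM in the knockdown, against 0.215 ± 0.0408 FPKM in WT (2.51, edgeR adjusted p = 0.0101), and the tensin Tns1 rose as well (0.70). The core activators talin 1 (Tln1, -0.28, adjusted p = 0.146) and kindlin 3 (Fermt3, -0.37, adjusted p = 0.133), added after their values were seen, were not called. With 1 library left out, Evl and Rapgef3 passed in 5 of 6 fits, Fyb in 3, Apbb1ip and Flna in 2, Tns1 in 1, and Zyx and Sipa1 in 0.

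All 32 genes of adhesion signalling were tested, of which 5 were lower and 1 higher, with a median of -0.24. The shares over all genes were 6.46% lower and 4.87% higher. By DESeq2 13 of these 32 genes were lower and 1 higher, beside 11.8% and 9.38% of all genes. Without WT replicate 1, 9 were lower, in a fit that called 1389 of 19050 genes lower. Without knockdown replicate 1, 1 was lower, in a fit that called 164 of 19052 genes lower. Arhgef6 fell to 19.995 ± 2.21 FPKM in the knockdown, against 34.6 ± 0.924 FPKM in WT (SD, n = 3 each; log2 fold change -0.75, edgeR adjusted p = 0.0103). Ptk2, the focal adhesion kinase, fell to 1.04 ± 0.163 FPKM in the knockdown, against 2.39 ± 0.621 FPKM in WT (-1.15, adjusted p = 0.0196), while its myeloid relative Ptk2b was not called (-0.19). The Rac exchange factor Dock2 (-0.48), the Arf GTPase-activating protein Git2 (-0.32) and the phospholipase Plcg2 (-0.36) fell, and the parvin Parvb rose (0.44). With 1 library left out, Arhgef6 passed in 5 of 6 fits, Dock2 in 4, Ptk2 in 3, Git2 and Parvb in 1 and Plcg2 in 0. In the list of integrin trafficking, 18 of 20 genes were tested, with 0 calls by edgeR, a median of 0.07, and 1 higher and 1 lower by DESeq2. DESeq2 called 9.38% of all genes higher and 11.8% lower. Without knockdown replicate 3, the counts lower and higher were 2 and 1 for ligands, for activation and linkage and for adhesion signalling alike, where that fit called 2.17% of all genes lower and 1.98% higher.

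**Figure D5:**
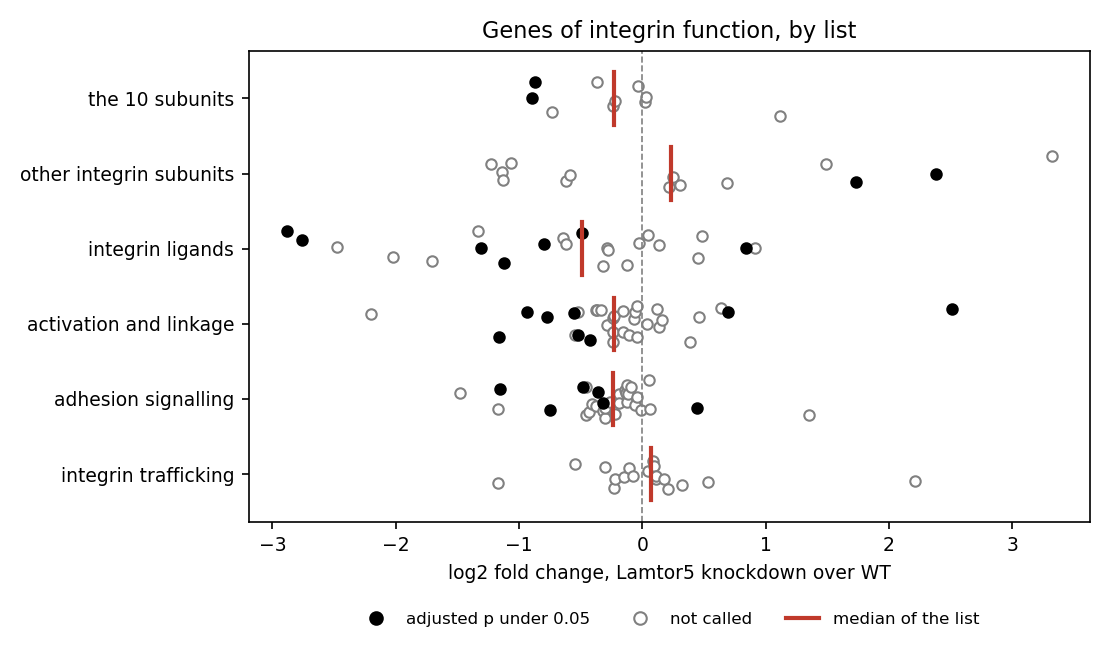
Log2 fold change (Lamtor5 knockdown over WT, edgeR) of each tested gene in the 10 subunits and the 5 lists of integrin function; filled points have an adjusted p under 0.05 and red lines are list medians. The medians of ligands, activation and linkage, and adhesion signalling lie between -0.49 and -0.23, and that of trafficking at 0.07.

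Cell type markers were measured beside these results, and their part in the differences of Itgam, Itga4 and the adhesion genes was not tested. The cells carried macrophage markers in both groups, but 7 of 14 macrophage identity genes were lower and 1 (Cd68, 0.63) higher, with a median log2 fold change of -1.11. Beside them, 6.46% of all genes were called lower and 4.87% higher. Csf1r, the M-CSF receptor, fell to 191 ± 31.6 FPKM in the knockdown, against 445 ± 97.2 FPKM in WT (SD, n = 3 each; -1.18, edgeR adjusted p = 0.0173). Cd14 fell to 95.2 ± 27.1 FPKM in the knockdown, against 228 ± 5.98 FPKM in WT, and Cd163 to 0.433 ± 0.0663 FPKM in the knockdown, against 1.22 ± 0.0529 FPKM in WT. Spi1, which encodes PU.1 and was singled out after its values were seen, had 70.8, 82.2 and 69.2 FPKM in the knockdown, against 101, 100 and 97.0 FPKM in WT (-0.38, edgeR adjusted p = 0.0281). The sum of the 14 macrophage markers ran from 2040.4 to 13242 FPKM in knockdown libraries and from 24282 to 31450 FPKM in WT libraries. Lyz2 made up 85.8, 85.5 and 3.61% of it in knockdown replicates 1 to 3 and 92.5 to 93.4% in WT, and without Lyz2 the sum was 1809 to 1967 FPKM in the knockdown and 1827 to 2071 FPKM in WT. Without knockdown replicate 3, 5 of 14 were lower and 1 higher, where that fit called 2.17% of all genes lower and 1.98% higher. With 1 library left out, Cd163 passed in 5 of 6 fits, Cd14 in 4 and Csf1r in 3.

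Of 8 monocyte markers 1 (Ccr2, log2 fold change -2.08) was lower and none higher, and their summed FPKM was 52.9 to 67.2 in the knockdown and 65.3 to 126 in WT. The edgeR calls in this and the following lists stand beside 6.46% of all genes called lower and 4.87% higher. Of 11 neutrophil markers Mpo was higher (0.95) and Ltf lower (-1.76), with sums of 93.3 to 142 FPKM in the knockdown and 111 to 168 FPKM in WT. Of 8 dendritic cell markers Kit was higher (2.23). Mast cell, basophil and eosinophil markers summed to 7.01 to 15.6 FPKM in the knockdown and 2.47 to 4.90 FPKM in WT, with Prss34 (2.13) and Prg2 (2.28) higher among 10 of 13 tested. B cell markers summed to 17.8 to 35.5 FPKM in the knockdown and 59.7 to 74.97 FPKM in WT, with Ighm lower (-1.74). T and NK cell markers were near 0 in both groups: the 12 genes summed to 1.35 to 1.51 FPKM in the knockdown and 0.838 to 1.54 FPKM in WT, and Cd3g and Gzma had no counts. Fibroblast and stroma markers summed to 2.42 to 7.26 FPKM in the knockdown and 3.79 to 8.61 FPKM in WT, with 0 of 10 called by edgeR (DESeq2 called 2 lower, beside 11.8% of all genes). With 1 library left out, Atp6v0d2 passed in 5 of 6 fits, Ltf in 4, Ighm in 3, Mpo, Kit, Prss34 and Prg2 in 2 and Ccr2 and Tnfrsf11a in 1.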

How the data were processed

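RNA sequencing libraries were made from total RNA of bone marrow-derived macrophages with a SMARTER mRNA-Seq kit, per the labels' protocols, from 3 Lamtor5 knockdown and 3 WT samples grouped by the genotype label. Per the submitters' processing notes, the build was GRCm38, also called mm10. Adapters were removed by the authors with cutadapt 1.9, per the file headers. No label or header names the aligner, the counter, its annotation or its use of strand.

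The authors deposited a table of 55401 genes with whole-number estimated counts, which sum to 2.95 to 3.01 per read pair (75.8 to 83.2 M per library), so no counting interval was made from them. The deposited FPKM are the authors' values per length and depth, listed at 0.0001 where the count is 0.

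The estimated counts were tested with edgeR 4.0.16 (R 4.3.3; filterByExpr with a minimum count of 10, TMM, quasi-likelihood test, group as the only term), with p-values adjusted over 18164 genes and a threshold of 0.05. The standard error is the log2 fold change over the square root of F. FPKM are printed as mean ± SD. Ratios were tested with exact permutation tests (scipy 1.17.1). The script was tested on simulated counts. Alternatives were RLE and upper quartile scaling, DESeq2 1.42.0, other count filters, limma 3.58.1 on log2(FPKM + 1) and log2(FPKM + 0.1), a block for the replicate number, and leaving out each library in turn.

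The subunits, the gene lists, the marker lists and the promoter motifs were chosen with earlier results of these data known. The text names all 10 subunits, Lamtor5, every tested gene among the other subunits, up to 8 called genes of each integrin list and up to 3 of each marker list by smallest p, markers at 0, and the 3 genes most alike to each called subunit. Gm49368, Lyz2, the summed row, and named genes that were not called or that lay outside this rule were added after their values were seen.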

Additional observations from a re-analysis of the deposited data

How the results depend on the processing

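The 18164 genes tested gave 2058 calls (885 higher, 1173 lower), against 3635 by DESeq2, 757 by limma on log2(FPKM + 1) with no filter, 1205 with no count filter, 728 with the replicate block and 0 to 2334 with 1 library left out. Upper quartile scaling moved the median of all genes by 0.07 and turned the split to 1156 higher and 958 lower, 54.7% higher against 43.0%. Subunits called lower, 2 in the fit reported, were 1 by limma with no filter, with no count filter and with the replicate block. With 1 library left out they were 0 to 1. Genes called lower were 409 of 28119 tested by limma with no filter and 695 of 28119 with no count filter. They were 424 of 18164 with the block, and 0 to 1389 of 18831 to 19052 with 1 library left out. Subunits called higher were 1 by DESeq2 against 0, where DESeq2 called 1611 of 17178 genes higher. The labels do not say whether replicate numbers pair the libraries. Correlations of deviations were 0.046, 0.036 and -0.011 for same-numbered libraries and -0.069 to 0.034 for the others. With 3 libraries per group these values cannot settle it. Under the block Itga4 kept its call (edgeR adjusted p = 0.0397) and Itgam lost it (0.107). The beta2 to beta1 alpha ratio changed by -0.056 with Itgam and Gm49368 counted together, an alternative chosen after seeing the data, against -0.34, and by -0.44 to -0.23 with 1 library left out. No called result changed sign. For the named genes, 740 of 949 alternative values stayed on their side of the threshold, 201 no longer passed and 8 newly passed. The sign differed in 16 of the 949, all of genes not called in either fit; the causes were not tested. The estimated counts, with their unstated counting, limit the precision for genes that share exons.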
